A study of Caenorhabditis elegans with 9 samples.

Results

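The C-type lectin genes of Caenorhabditis elegans were followed in whole L2 larvae of 3 hsf-1 genotypes. Members were all genes whose symbol in the deposited tables is clec- followed by a number, and 255 of the 20389 genes listed met this rule, which uses no measured value. C-type lectins carry a domain that in many animal proteins binds sugars with the help of calcium. The family is among the largest of the nematode genome, most of its members have no known ligand, and many are predicted to be secreted. Some members are transcribed in the intestine, and the set that goes up differs from one infecting microbe to another, so that the family is widely used as a readout of intestinal immune responses.

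RNA was sequenced from larvae collected 30 h after a 2 h egg lay at 20 °C, with 3 libraries per genotype and 500 larvae pooled over several collections in each library. The first group was homozygous for hsf-1(ok600), a deletion allele of the gene for the heat shock transcription factor, and its larvae were picked as GFP-negative offspring of strain OG576, in which the allele is kept over the balancer hT2 of chromosomes I and III. The second was strain AM1061, which is hsf-1(ok600) with the transgene rmSi1[hsf-1::gfp] and is called the transgenic line here. The remaining group was wild type, strain N2. The promoter of the transgene is not given in the labels. No heat shock and no infection was named for any group.

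The deposited tables give each gene 1 FPKM per genotype, a read count scaled to transcript length and to library size, so levels can be set side by side between genes. The authors combined the 3 libraries of a genotype, so no spread between libraries can be shown. The interval printed after a value was deposited beside it. Its level is not stated, and depth is unknown from FPKM. Intervals were wide: for members of at least 10 FPKM they reached a median of 72.2% of the value to each side in the mutant, 77.2% in the transgenic line and 74.7% in wild type, much like those of all genes (71.5%, 73.9% and 74.0%). The targeted gene hsf-1 stood at 21.4 FPKM (interval 6.52 to 36.4) in the mutant, 69.3 (29.4 to 109.1) in the transgenic line and 25.3 (7.62 to 43.1) in wild type, with q 0.749 for the mutant against wild type in the authors' deposited table. This value gives no check of the labels, since a level per gene does not show whether the counted reads lie inside or outside the deleted stretch.

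Most of the family was listed at or near 0 at this stage. Of the 255 members, 73 were listed at 0 in every genotype, 81 more were above 0 but under 1 FPKM in all of them, and 101 reached 1 FPKM in at least 1 genotype. An FPKM of at least 1 was found for 92 members in the mutant, 71 in the transgenic line and 72 in wild type, which is 36.1%, 27.8% and 28.2% of the family. Over all genes the shares were 62.7%, 58.1% and 58.1%. Members listed at 0 numbered 88 in the mutant, 113 in the transgenic line and 123 in wild type. Over all genes the order of genotypes was the same, with 16.96%, 22.3% and 26.6% listed at 0.

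A few members carried most of the signal. Summed over the family, FPKM came to 3260 in the mutant, 3269 in the transgenic line and 2134 in wild type, or 0.318%, 0.296% and 0.208% of all FPKM. The 10 highest members made up 75.7% of the sum in the mutant, 79.1% in the transgenic line and 75.5% in wild type. The composition differed: clec-60 held 16.8% of the family's sum in the mutant but 0.0595% in the transgenic line and 0.0522% in wild type. Without clec-60 the sums were 2713, 3267 and 2133. With clec-60 left out, the sum in the mutant thus lay between those of the other two genotypes.

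The highest member in each genotype was clec-63 (F35C5.6, ce10 chromosome II, 12895567 to 12897393), which lies in a run of lectin genes described below. It had 1049 FPKM (interval 604 to 1493) in the mutant, 1404 (839 to 1969) in the transgenic line and 724 (415 to 1033) in wild type. The transgenic line was highest and wild type lowest, and the intervals overlapped, with q 0.0817 for the mutant against wild type in the authors' deposited table. Next in wild type came clec-180, with 283 (168 to 398) FPKM in the mutant, 314 (183 to 444) in the transgenic line and 209.1 (118.9 to 299) in wild type. It was followed by clec-1, with 157 (68.3 to 246) in the mutant, 131 (50.9 to 209.98) in the transgenic line and 171.6 (76.1 to 267) in wild type. For both genes all 3 intervals overlapped, and q in the authors' deposited table was 0.224 for clec-180 and 0.845 for clec-1.

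Below these stood members whose intervals overlapped between all genotypes. clec-50 had 92.4 FPKM in the mutant, 165 in the transgenic line and 120.5 in wild type, and clec-225 had 101, 164 and 89.6. clec-173 had 58.7 in the mutant, 110.3 in the transgenic line and 81.3 in wild type, and clec-150 had 60.9, 75.05 and 53.04. clec-83 had 51.4, 65.7 and 53.8, clec-41 had 60.04, 60.7 and 33.2, and clec-65 had 40.98, 59.8 and 39.1, in the same order of genotypes. Each of these overlapped the next in rank within its genotype. clec-41, whose product is a defence protein against Bacillus thuringiensis, had the widest step of this group between mutant and wild type, a ratio of 1.81 with q 0.0939 in the authors' deposited table. Across the 101 members above 1 FPKM somewhere, the order of levels was nearer between the transgenic line and wild type (Spearman's rho 0.84) than between the mutant and the transgenic line (0.78) or the mutant and wild type (0.66). Of these members, 18 reached 1 FPKM in the mutant alone, 1 in the transgenic line alone and 5 in wild type alone. The level filter can therefore itself lower the coefficients of the mutant. The points also share libraries and, for genes in a run, sequence similarity, so the coefficients are descriptions.

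**Figure D1:**
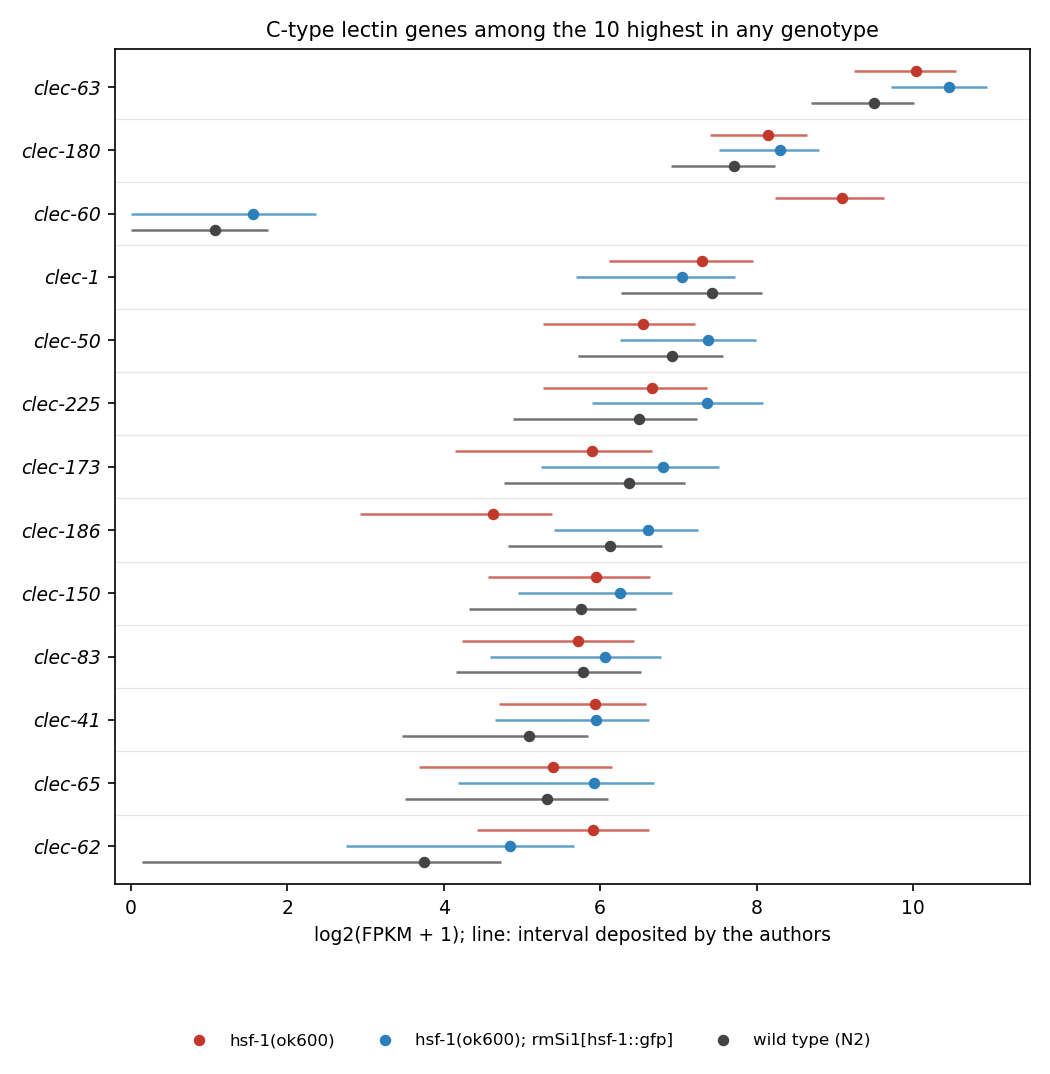
FPKM of the members that were among the 10 highest in at least 1 genotype, on a log2(FPKM + 1) axis, with mutant, transgenic line and wild type from top to bottom for each gene; lines are the intervals deposited by the authors and each point combines 3 libraries. The genotypes overlap for most genes, while clec-60 stands at 546 FPKM in the mutant against 1.95 and 1.11 in the others, and clec-186 is at 23.8 against 96.7 and 68.7.

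In the mutant against wild type, the question was which lectin genes change when hsf-1 is mutated in larvae that were not heat shocked. A member counted as called where the deposited q was 0.05 or less and either genotype had 1 FPKM or more. The authors tested 93 of the 255 members, and 162 were marked as not tested, most of them at or near 0. Of the 93 tested members 9 were called in the authors' deposited table (9.68%), beside 5.83% of 12612 genes. Of these, 7 rose (7.53%, beside 2.93% of all genes) and 2 fell (2.15%, beside 2.9%). No test of the family against other genes was made. A further 12 tested members, 9 higher and 3 lower in the mutant, had an unadjusted p under 0.05 in the authors' deposited table without reaching the q. The matching share of all tested genes was not counted, so these 12 are not read as a result about the family.

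The largest rise was that of clec-60 (ZK666.6, chromosome II, 10480042 to 10481786), a gene known for strong induction in the intestine by the bacteria Staphylococcus aureus and Microbacterium nematophilum. It had 546 FPKM (interval 299 to 791) in the mutant, 1.95 (0 to 4.17) in the transgenic line and 1.11 (0 to 2.37) in wild type. The mutant's interval lay clear of both others, whose intervals overlapped each other. The ratio to wild type was 491 and the log2 difference 8.02, with q 0.00249 in the authors' deposited table. In the mutant clec-60 ranked second in the family, above clec-180.

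The other members that rose were of middle or low level. clec-62 (F35C5.5, chromosome II, 12892995 to 12895031) had 59.2 FPKM (20.5 to 97.9) in the mutant, 27.7 (5.74 to 49.7) in the transgenic line and 12.5 (0.109 to 25.7) in wild type. Its level in the transgenic line lay between the others, all 3 intervals overlapped, and the authors' deposited table gave q 0.00616 for the 4.74-fold rise. clec-42 (F16H6.1, chromosome V, 18191415 to 18194234), studied together with clec-41 in defence against Bacillus thuringiensis, had 15.9 (4.39 to 27.3) in the mutant, 6.10 (0.927 to 11.2) in the transgenic line and 2.12 (0.0618 to 4.20) in wild type. The mutant's interval lay just above that of wild type and overlapped that of the transgenic line, and the 7.49-fold rise had q 0.00755 in the authors' deposited table.

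clec-174 (Y46C8AL.2, chromosome IV, 3940207 to 3941696) had 15.01 FPKM (3.45 to 26.5) in the mutant, 0.766 (0 to 1.95) in the transgenic line and 1.85 (0 to 4.20) in wild type. The transgenic line was the lowest of the genotypes here, and the mutant's interval was clear of it but not of wild type. The 8.12-fold rise over wild type had q 0.0443 in the authors' deposited table. clec-160 (F09G8.8, chromosome III, 8272885 to 8275900), which lies apart from other lectin genes, had 23.3 (8.15 to 38.4) in the mutant, 13.0 (3.07 to 22.8) in the transgenic line and 8.93 (1.89 to 15.97) in wild type. Its intervals overlapped throughout, and the 2.61-fold rise was near the threshold, at q 0.0474 in the authors' deposited table.

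clec-167 (F38A1.4, chromosome IV, 1253339 to 1255732) and clec-82 (Y54G2A.8, chromosome IV, 2835662 to 2838591) were called from low values. clec-167 had 2.37 FPKM (0.163 to 4.64) in the mutant, 0.205 (0 to 0.569) in the transgenic line and a listed value of 0 in wild type. clec-82 had 2.28 (0 to 5.24) in the mutant, 0.285 (0 to 0.736) in the transgenic line and likewise a listed 0 in wild type. Both have q 0.00249 in the authors' deposited table, and no fold is given against a level of 0. Among all tested genes, 134 were listed at 0 in 1 of mutant and wild type, and 75 of these (56%) were called, against 660 of 12481 genes above 0 in both. For clec-167 and clec-82 the interval deposited with the 0 in wild type is itself 0 to 0.

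The members that fell were clec-186 and clec-32. clec-186 (ZK896.7, chromosome IV, 12866092 to 12869059) had 23.8 FPKM (6.62 to 40.9) in the mutant, 96.7 (41.6 to 151) in the transgenic line and 68.7 (27.3 to 109.8) in wild type. The mutant's interval was below that of the transgenic line and overlapped that of wild type, and the level was 2.89-fold lower than in wild type with q 0.00755 in the authors' deposited table. clec-32 (F49A5.9, chromosome V, 16860206 to 16861847) was listed at 0 in the mutant, with 0.0836 (0 to 0.371) in the transgenic line and 1.56 (0 to 3.98) in wild type. Its q was 0.00249 in the authors' deposited table, and it too rests on a listed 0.

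The deposited intervals were read as well. Among the 100 members with at least 1 FPKM in the mutant or wild type, 6 had an interval in the mutant wholly above that in wild type and 0 had one below it, where 0.622% and 0.266% of 13182 genes did so and 0.888% did either. Of the 6, clec-60, clec-42 and clec-167 were called. The other 3 were clec-140, clec-3 and clec-61. Of the 6, clec-140, clec-3, clec-61 and clec-167 passed the level filter through the mutant alone, the genotype in which they are high. The interval of clec-167 in wild type is 0 to 0, so any lower bound above 0 in the mutant sets it apart. The count is therefore a description and no support for a rise of the family. clec-140 (T05A7.2, chromosome II, 4674470 to 4675726) had 21.7 FPKM (4.25 to 39.0) in the mutant, 1.12 (0 to 2.78) in the transgenic line and 0.711 (0 to 1.90) in wild type, a ratio of 30.5 with q 0.184 in the authors' deposited table. The mutant stood clear of both other genotypes. Its neighbour T05A7.3, 51 bases away and named after its values were seen, had 15.2, 1.12 and 1.05 FPKM in these genotypes, and whether reads were shared between both genes was not tested.

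clec-3 (C41H7.7, chromosome II, 3017475 to 3019790) had 7.96 FPKM (1.33 to 14.6) in the mutant, 1.37 (0 to 3.15) in the transgenic line and 0.0573 (0 to 0.249) in wild type, with q 0.506 in the authors' deposited table. clec-61 (ZK666.7, chromosome II, 10488668 to 10490454), the nearest lectin gene downstream in coordinates of clec-60, had 7.96 (1.26 to 14.6) in the mutant, 0.545 (0 to 1.34) in the transgenic line and 0.116 (0 to 0.4201) in wild type, with q 0.411 in the same authors' deposited table. For these genes the intervals and the deposited q thus gave different answers. Both had under 0.2 FPKM in wild type.

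**Figure D2:**
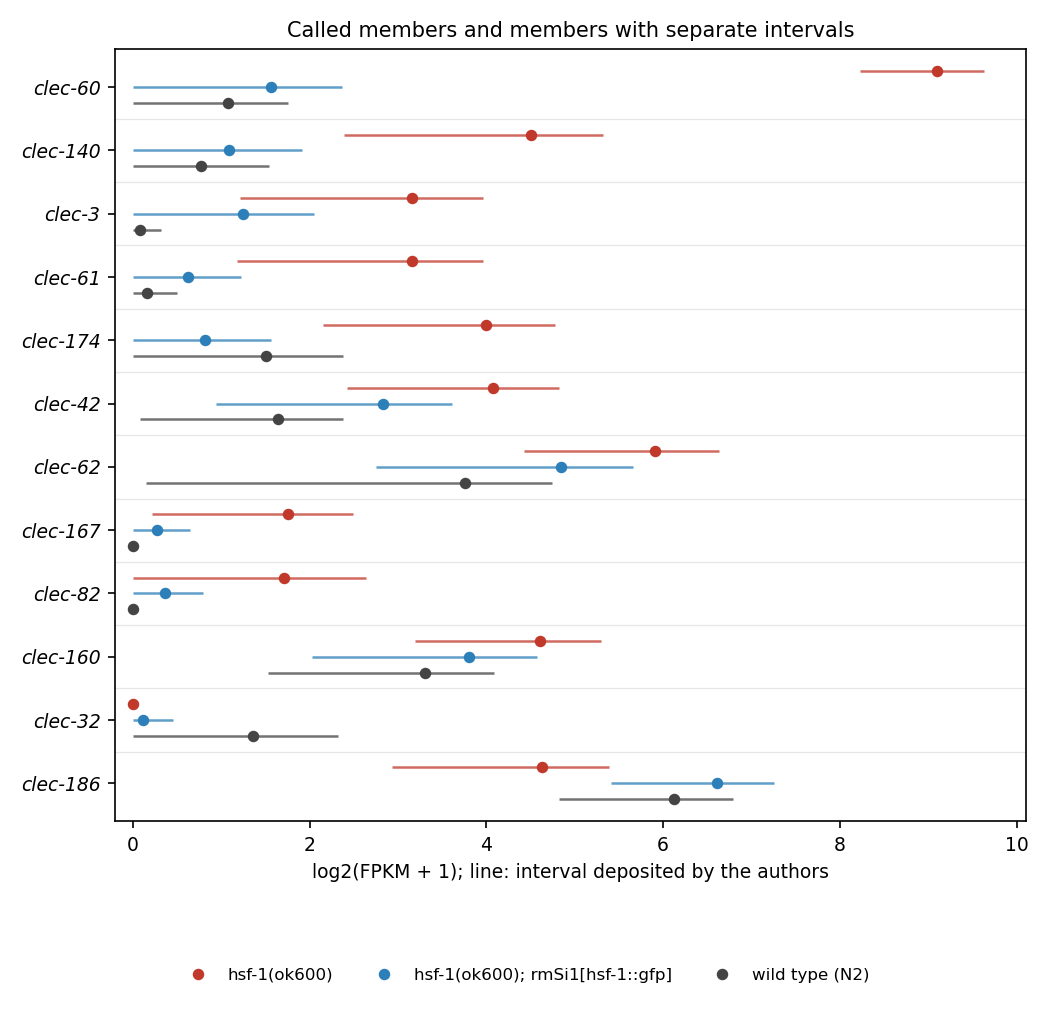
Called members and members whose interval in the mutant lay apart from that of another genotype, as log2(FPKM + 1) with the deposited intervals; mutant, transgenic line and wild type run from top to bottom within each gene. The mutant is the highest point for every gene except clec-32 and clec-186, and for clec-60 its interval starts at 299 FPKM while the others end at 4.17 and 2.37.

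Over the members with at least 1 FPKM in either genotype, 71 of 100 were higher in the mutant than in wild type on the log2(FPKM + 1) scale, with a median difference of 0.50 (quartiles −0.18 to 1.19). Over all genes 57.7% were higher and the median was 0.15. Differences of at least 1 were found for 31% of these members and of −1 or less for 13%, against 15% and 9.55% of all genes. These counts cover the members that passed the level filter, which a member high in the mutant passes through that genotype alone. With no level filter the family's median was 0.

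The transgenic line was then compared with wild type, for which the authors deposited no test. Of 83 members with at least 1 FPKM in either, 0 had separate intervals in either direction, where 0.685% of 12563 genes did, 0.557% higher and 0.127% lower in the transgenic line. On data simulated from genes of at least 5 FPKM in wild type, this rule missed about as many large changes as it found. The simulation assumed a level for the intervals and held no genes under that FPKM in wild type. A count of 0 therefore does not show that these levels were alike. On the log2(FPKM + 1) scale 56 of 83 members (67.5%) were higher in the transgenic line, with a median of 0.44, against 50% and 0.00 over all genes. A member could pass the level filter through 1 genotype alone, and with no level filter the family's median was 0. Differences of at least 1 numbered 13 (15.7%, beside 11% of all genes) and of −1 or less 10 (12%, beside 11.5% of all genes). The largest positive ones among members of at least 5 FPKM included clec-165, with 12.04 FPKM (1.03 to 23.0) in the transgenic line and 2.17 (0 to 4.63) in wild type, and clec-85, with 30.3 (7.26 to 53.2) in the transgenic line and 7.69 (1.04 to 14.3) in wild type. clec-49, needed for full defence against Serratia marcescens, had 12.3 (1.88 to 22.6) in the transgenic line and 3.14 (0 to 6.28) in wild type. On the low side, clec-232 had 0.162 FPKM (0 to 0.609) in the transgenic line and 9.19 (0.122 to 18.2) in wild type. Every one of these pairs of intervals overlapped.

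In the mutant against the transgenic line, 96 members had at least 1 FPKM in either genotype. The intervals lay apart for 3 members higher in the mutant (clec-60, clec-140 and clec-174) and for 1 lower (clec-186), where 0.689% and 0.681% of 13071 genes did so and 1.37% did either. Of these members, clec-174 passed the level filter through the mutant alone. On the log2(FPKM + 1) scale 56 of 96 members (58.3%) were higher in the mutant, close to the 59.5% of all genes, and the median was 0.28 against 0.19. This median turned to −0.14 among members of at least 5 FPKM. clec-60 had a log2 difference of 7.54, clec-140 of 3.42, clec-174 of 3.18 and clec-186 of −1.98. The mutant and the transgenic line share the ok600 allele, and the comparisons share genotypes with each other, so their values are given side by side without a measure of agreement.

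**Figure D3:**
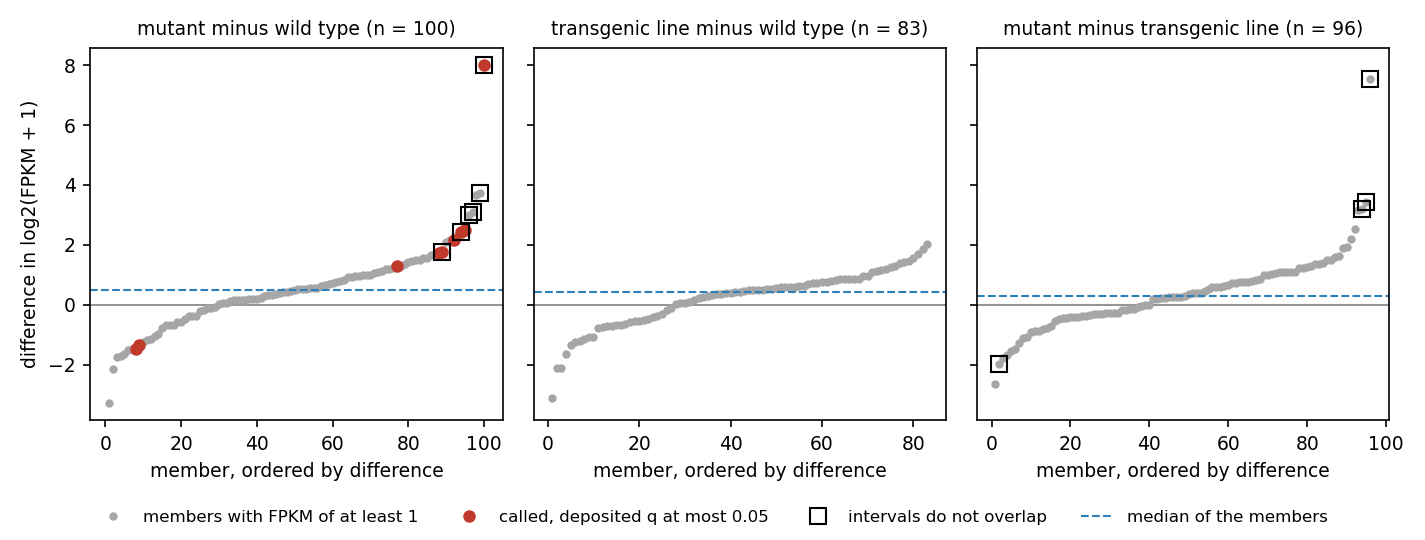
Differences in log2(FPKM + 1) of the members, ordered within each comparison: mutant minus wild type (100 members), transgenic line minus wild type (83) and mutant minus transgenic line (96). Red points are called, squares mark intervals that do not overlap and the dashed line is the members' median; the far right point in the left and right panels is clec-60, at 8.02 and 7.54.

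Other members with large differences were not called. clec-86, whose deposited locus is shared with another gene, had 47.2 FPKM (0.290 to 96.2) in the mutant, 4.37 (0 to 25.2) in the transgenic line and 2.77 (0 to 14.2) in wild type. The mutant was highest, and its interval overlapped those of both others. clec-71 had 5.28 (0.682 to 9.93) in the mutant, 0.372 (0 to 0.909) in the transgenic line and 0.467 (0 to 1.21) in wild type, with q 0.0949 in the authors' deposited table. The opposite order was seen for clec-52, with 4.32 (0.323 to 8.28) in the mutant, 32.4 (7.96 to 56.6) in the transgenic line and 14.2 (2.69 to 25.6) in wild type. Its neighbour clec-51, which shares its locus with another gene, had 6.23 (0 to 19.7), 23.6 (0.105 to 49.9) and 22.7 (0 to 63.2) in the same genotypes. Both were lowest in the mutant, with overlapping intervals.

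In some members both ok600 genotypes stood on one side of wild type. clec-85 had 22.7 FPKM (5.42 to 40.1) in the mutant, 30.3 in the transgenic line and 7.69 in wild type, with q 0.117 in the authors' deposited table. clec-10 had 10.3 (0.927 to 19.7) in the mutant, 8.42 (0.280 to 17.4) in the transgenic line and 2.82 (0 to 6.58) in wild type. On the low side, clec-232 had 0.0431 (0 to 0.366) in the mutant, beside the values of the transgenic line and wild type given above. clec-196 had 1.84 (0 to 3.62) in the mutant, 1.19 (0 to 2.21) in the transgenic line and 8.57 (0.201 to 16.9) in wild type, and clec-64 had 4.72 (0.459 to 8.90), 6.76 (0.459 to 13.1) and 16.97 (3.67 to 30.2). In none of these were the intervals apart.

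Some large differences rest on values with very wide intervals. clec-89, which shares its locus with another gene, had 4.27 FPKM (0 to 15.2) in the mutant, 4.44 (0 to 14.3) in the transgenic line and 22.6 (0 to 97.2) in wild type. clec-178, also with a shared locus, had 18.8 (0 to 81.8) in the mutant, 35.2 (0 to 131) in the transgenic line and 12.5 (0 to 65.8) in wild type. On chromosome II, clec-144 had 5.68 (0 to 11.3), 3.40 (0 to 6.75) and 12.8 (0.482 to 24.6), and clec-146 had 14.6 (0 to 30.7), 8.25 (0 to 16.5) and 22.6 (0.432 to 53.5). Both of these were highest in wild type, and the transgenic line was the lowest.

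An FPKM of 1 was reached in the mutant and in neither other genotype by 18 members, which is 17.8% of the 101 that reached it somewhere. In the transgenic line this held for 1 member, clec-218 (0.99%), and in wild type for 5, clec-26, clec-32, clec-34, clec-232 and clec-258 (4.95%). Over all genes the shares were 6.11%, 1.48% and 2.31% of 13380. Of the 18, clec-167 and clec-82 were called. The highest was clec-61 at 7.96 FPKM, followed by clec-71 at 5.28 and clec-205 at 3.97 in the mutant, with clec-205 at 0.652 in the transgenic line and 0.585 in wild type. The lowest was clec-44, at 1.01. Crossing 1 FPKM was not tested as a difference, and most of these values have intervals that reach those of the other genotypes.

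Lectin genes often lie in runs of neighbours, which the selection did not use. Members with at most 1 other listed gene between them, or within 10 kb of each other, were counted as 1 array. By this measure 82 members lay alone, and the others formed 52 arrays of at least 2 genes. At least 1 FPKM in some genotype was reached by 36 of the members alone and 65 of those in arrays. Of the 9 called members, 8 lay in arrays, as did 65 of the 101 members that reached 1 FPKM in some genotype. No array held more than 1 called member. Whether called members lie in arrays more often than other members was not tested.

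Within an array the members differed widely. In the array of 5 genes around clec-60, clec-60 had 546 FPKM in the mutant and clec-61 had 7.96, while clec-59, 653 bases from clec-60, had 0.0753 in the mutant and was listed at 0 in the transgenic line and wild type. clec-58 and clec-143 were under 0.5 FPKM in every genotype. The array from clec-62 to clec-66 was active in all genotypes, summing to 1157 FPKM in the mutant, 1508 in the transgenic line and 799 in wild type. Its members differed in their calls. clec-62 rose in the mutant, while clec-63, 535 bases away, and clec-65, at 40.98, 59.8 and 39.1 FPKM, were not called. clec-64, between clec-63 and clec-65, had its highest level in wild type, and clec-66 had 3.41 FPKM (0.252 to 6.55) in the mutant, 9.66 (1.09 to 18.2) in the transgenic line and 6.05 (0.756 to 11.3) in wild type.

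The arrays on chromosome IV also held called members beside uncalled ones. Of the 13 genes from clec-67 to clec-79, 6 reached 1 FPKM in the mutant, 2 in the transgenic line and 4 in wild type, and the array summed to 85.7, 35.2 and 44.1 FPKM. clec-72 had 44.0 (16.96 to 70.97) in the mutant, 20.0 (5.63 to 34.3) in the transgenic line and 27.9 (9.05 to 46.7) in wild type, and clec-67 had 18.1 (5.73 to 30.4), 12.9 (3.10 to 22.6) and 12.1 (3.10 to 21.2). clec-75 had 1.52, 0.0324 and 0.112, and clec-76 had 1.48, 0.475 and 1.36. clec-69, clec-70, clec-73 and clec-77 were under 1 FPKM in every genotype, and clec-68, clec-74 and clec-79 were listed at 0 throughout. None of these was called, whereas clec-174, which lies between clec-71 and clec-72, was. In the array from clec-80 to clec-85 all 6 members reached 1 FPKM somewhere, and the called clec-82 was the lowest of them at 2.28 FPKM in the mutant, 439 bases from clec-83 at 51.4. clec-84 had 31.9 FPKM in the mutant, 39.3 in the transgenic line and 21.6 in wild type. clec-80 had 12.6, 10.7 and 5.53, and clec-81 had 10.5 (0 to 24.95), 2.11 (0 to 11.7) and 1.30 (0 to 4.99). clec-80 and clec-81 share a deposited locus, so their separate levels are less certain.

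Further arrays also held a called member. The array from clec-165 to clec-170 summed to 31.3 FPKM in the mutant, 34.6 in the transgenic line and 24.5 in wild type. Its highest member clec-170 stood at 18.7, 16.3 and 18.5, so that the called clec-167 made up little of it. clec-166 had 4.27, 5.48 and 3.19, and clec-168 had 0.260 in the mutant and was listed at 0 in the others. The 13 genes from clec-40 to clec-33 on chromosome V summed to 11.6, 8.82 and 13.6 FPKM, with clec-31 the highest in wild type at 2.44 (0.0898 to 4.76) in the mutant, 3.67 (0.270 to 7.01) in the transgenic line and 5.85 (0.449 to 11.2) in wild type. Of the others there, clec-28 had 2.43, 0.351 and 1.99, clec-37 had 1.77, 0.759 and 0.715, clec-36 had 1.61, 1.201 and 0.328, and clec-27 had 1.26, 0.360 and 0.418. clec-26 had 0.379, 0.690 and 1.23, while clec-22, clec-24, clec-25, clec-33, clec-35 and clec-40 were under 1 FPKM in every genotype. The array of clec-42 summed to 16.96, 6.46 and 2.86 FPKM, nearly all of it clec-42, with clec-245 at 0.706 in the mutant, 0.156 in the transgenic line and 0 in wild type, and clec-246 at 0.395, 0.205 and 0.743. clec-187, the only array partner of clec-186, had 13.6 (2.75 to 24.5), 15.1 (3.06 to 27.04) and 22.2 (5.07 to 39.1), and it was not called. The array of clec-186 and clec-187 summed to 37.4 FPKM in the mutant, 112 in the transgenic line and 90.9 in wild type.

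**Figure D4:**
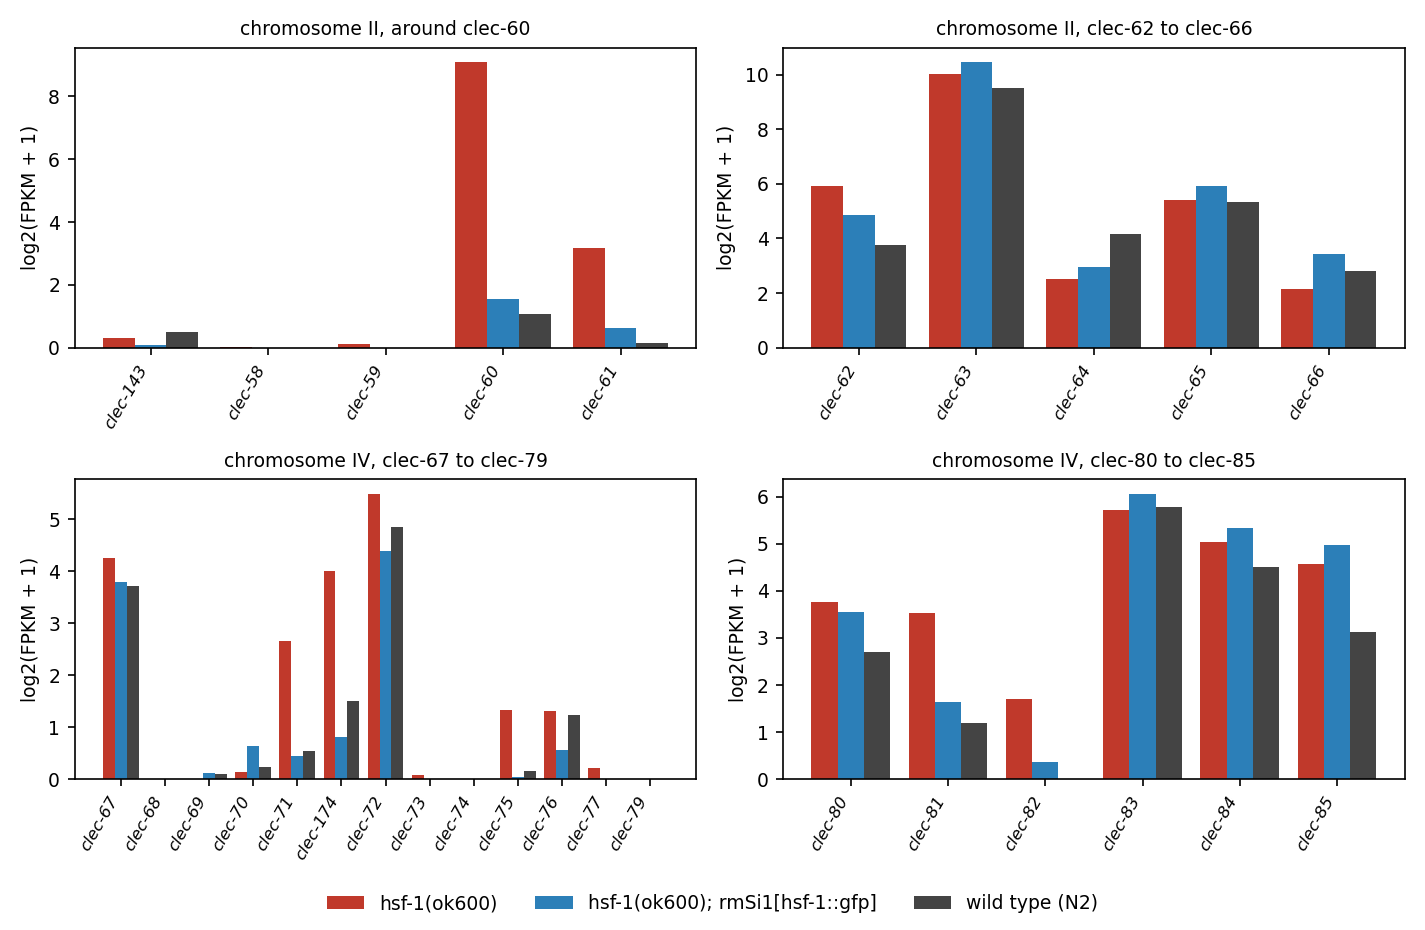
Levels of the members of 4 arrays as log2(FPKM + 1), genes in chromosomal order, with bars for mutant, transgenic line and wild type from left to right; no error is drawn, and the intervals are wide. In the first panel clec-60 reaches 546 FPKM in the mutant and clec-61 7.96, beside other neighbours near 0. In the second, clec-63 is the highest gene in every genotype.

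Some arrays were listed at 0 almost throughout. All 5 genes from clec-250 to clec-254 were listed at 0 in every genotype, as were 7 of the 8 from clec-127 to clec-134 and 6 of the 7 from clec-93 to clec-99. By chromosome, 7 of 36 members on I, 20 of 51 on II, 4 of 15 on III, 31 of 58 on IV, 36 of 92 on V and 3 of 3 on X reached 1 FPKM in some genotype. The called genes were 2 on II, 1 on III, 4 on IV and 2 on V. Chromosome II held the largest sum of FPKM, 1803 in the mutant, 1555 in the transgenic line and 854 in wild type, in which clec-60 and clec-63 are counted.

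Gene type was looked up by sequence name in the RefSeq table of assembly WBcel235, where 254 of 255 members were found and clec-81 was not. Of these, 239 are protein coding and 15 are pseudogenes. A single pseudogene reached 1 FPKM: clec-44, at 1.01 in the mutant and listed at 0 in the transgenic line and wild type. The coding lengths had a median of 951 nucleotides and ran from 342 for clec-248 to 10542 for clec-78. In the files 29 members share a locus with another gene, so that their levels are less certain, and how reads matching several lectin genes were counted is not known here.

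Lectin genes with published links to infection were taken as a list of 31, written with results of these data known. Of 28 tested, 5 rose (clec-42, clec-60, clec-62, clec-82 and clec-174) and 0 fell by the q of the authors' deposited table. In the whole family 7 of 93 rose, and over all tested genes 2.93% rose and 2.9% fell. The list's median log2 difference was 0.60, against 0.15 over all genes, and because it was written with results known this is a description. Levels in this list ran both ways. clec-4 had 9.70 FPKM (1.89 to 17.5) in the mutant, 12.1 (2.39 to 21.8) in the transgenic line and 6.23 (0.659 to 11.8) in wild type. clec-7 had 0.785 (0 to 1.59), 1.03 (0 to 2.42) and 3.27 (0 to 6.99), and clec-17 had 9.03 (1.55 to 16.5), 11.5 (2.37 to 20.6) and 3.71 (0.0817 to 7.27). clec-169 had 2.67 (0.229 to 5.19), 0.571 (0 to 1.45) and 0.569 (0 to 1.60), and clec-172 had 2.91 (0 to 5.78), 0.841 (0 to 1.86) and 0.398 (0 to 1.03), both highest in the mutant. clec-206 had 1.35 (0 to 2.93), 2.02 (0 to 4.495) and 4.16 (0 to 8.31), and was highest in wild type. clec-87 had 5.84 (0.567 to 11.1), 11.5 (1.701 to 21.3) and 4.17 (0.0945 to 8.22), clec-47 had 1.01, 1.69 and 1.62, clec-210 had 0.467, 2.20 and 1.18, and clec-227 had 2.24, 1.64 and 1.27. None of these was called, and clec-209 was listed at 0 in every genotype.

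Genes of immune signalling and of infection responses were read from further lists, which were also chosen with earlier results of these data known. Whether they share a response with the lectin genes was not tested. Among 33 tested genes of immune signalling and transcription, 3 rose and 0 fell, beside 2.93% and 2.9% of all tested genes, and the median log2 difference was 0.44, against 0.15 over all genes. Those that rose were tir-1, the adaptor upstream of the PMK-1 kinase cascade, at 161 FPKM in the mutant, 96.4 in the transgenic line and 63.6 in wild type, cebp-1, a bZIP transcription factor gene, at 165, 58.1 and 62.8, and nipi-3, a Tribbles-type pseudokinase gene that acts on cebp-1, at 73.8, 37.2 and 29.3. Each had q 0.00249 in the authors' deposited table. The kinase gene pmk-1 itself had 44.8 FPKM in the mutant, 22.9 in the transgenic line and 27.1 in wild type, with q 0.320 in the authors' deposited table.

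Infection response genes outside the lectin family were called in both directions. Of 35 tested, 4 rose (irg-5, irg-6, dod-19 and dod-24) and 5 fell (lys-1, lys-4, spp-3, spp-5 and cpr-1), beside 2.93% and 2.9% of all tested genes, and the median log2 difference was −0.00. The call of irg-6, at 2.92 FPKM in the mutant, rests on a listed 0 in wild type. The lysozyme gene lys-4 fell to 57.0 FPKM in the mutant, with 288 in the transgenic line and 302 in wild type, a level 5.30-fold lower than wild type at q 0.00249 in the authors' deposited table. spp-5, which encodes a pore-forming saposin-like protein, fell to 202 in the mutant, with 478 in the transgenic line and 528 in wild type, at q 0.00755 in the authors' deposited table. The infection response gene irg-5 rose to 62.1 in the mutant, with 15.5 in the transgenic line and 19.9 in wild type, at q 0.0279 in the authors' deposited table.

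Galectins are a separate family of sugar-binding proteins. Of 12 tested, 1 rose and 1 fell, beside 2.93% and 2.9% of all tested genes, with a median log2 difference of 0.05. lec-8 rose to 154 FPKM in the mutant, with 32.5 in the transgenic line and 31.5 in wild type, and lec-10 fell to 251, with 713 in the transgenic line and 704 in wild type. Both had q 0.00249 in the authors' deposited table.

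Tissue markers were read beside the lectins, because fewer cells of a type and less RNA per cell cannot be told apart in whole larvae. Of 12 intestine markers none was at 0, 0 rose and 2 fell (asp-1 and cpr-6, both protease genes), their median log2 difference was −0.34, and they summed to 2710 FPKM in the mutant, 5103 in the transgenic line and 4383 in wild type. Within these sums asp-1 had 852 FPKM in the mutant, 2203 in the transgenic line and 2003 in wild type. Not all intestine markers were lowest in the mutant, and ifb-2, which was not called, had 188, 145 and 125. The intestinal regulator elt-2 had 22.5 FPKM in the mutant, 11.1 in the transgenic line and 17.9 in wild type, and the brush border actin gene act-5 had 904, 1379 and 1127. Of 10 neuron markers 3 rose (snb-1, egl-21 and egl-3) and 0 fell, with a median of 0.29 and sums of 1981 FPKM in the mutant, 1368 in the transgenic line and 1250.2 in wild type. Of 9 tested epidermis markers 1 rose (rol-6), with a median of 0.32 and sums of 7012, 6749 and 5196. Of 10 body muscle and 9 pharynx markers none was called, with medians of −0.04 and −0.26. The part of tissue makeup in the lectin values was not tested.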

How the data were processed

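Total RNA of 9 libraries was analysed, 3 per genotype, with groups taken from the sample titles. Per the labels' protocols, RNA came from Trizol and column extracts and was amplified by SPIA with a Nugen Ovation kit. TopHat2, Cuffdiff and the build ce10 are named in the submitters' processing notes, while their versions, the annotation, the strand setting and the treatment of reads matching several genes are not known here. Per the file headers, the authors deposited FPKM and its bounds for each gene and genotype, with libraries combined. Deposited p-values and q-values exist for 1 comparison, the mutant set against wild type. The labels name no separate cultures for libraries of 1 genotype, so these p-values may measure technical spread.

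A moderated linear model (limma) on replicates had been planned, but with 1 value per genotype the deposited q was used, where 0.05 or less counted as called if either genotype had 1 FPKM or more. The other comparisons counted deposited intervals that did not overlap. This rule was tested on data simulated from genes of at least 5 FPKM in wild type, with an assumed interval level. There it made no call in the wrong direction but missed about as many large changes as it found, short of the recovery first asked of it, and the criterion was then loosened. Log2 differences used a pseudocount of 1, which understates changes of low genes, and folds are ratios of FPKM. Named members were the called ones, the 10 highest per genotype, those with separate intervals, the 6 largest differences in each direction among members of at least 5 FPKM, the infection-linked list and array neighbours of called members. Others are examples named after their values were seen. Members and lists were chosen with earlier results of these data known. Printed coordinates are the files' own (ce10). By sequence name, gene types are from RefSeq and coding lengths from Ensembl release 115. Python 3.11.15, pandas 2.3.3 and numpy 2.4.6 were used. Sequences were not analysed here.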

Additional observations from a re-analysis of the deposited data

How the results depend on the processing

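The 7 members that rose stayed between 5 and 7 under every alternative run (no filter or a minimum of 5 FPKM, a q threshold of 0.01, a minimum log2 change of 1 in size, another adjustment of p, members with loci of their own, or members above 0 in both genotypes). The 2 that fell became 1 with a minimum of 5 FPKM and 1 without members listed at 0, where clec-32 leaves by construction. Counts of separate intervals stayed within 1.5 times of those given. The family's median log2 difference became 0 in all 3 comparisons with no filter, since most members are at or near 0. For the transgenic line against wild type it became 0.55 with a minimum of 5 FPKM. For the mutant against the transgenic line it turned to −0.14 with that minimum, and was 0.41 and 0.42 with pseudocounts of 0.1 and 0.01. The cause was not tested. Centring on 7872 genes moved no genotype by over 0.07. Without clec-63 the summed FPKM was 2211 in the mutant, 1865 in the transgenic line and 1410.2 in wild type. Without the 5 highest members (clec-63, clec-180, clec-60, clec-1 and clec-50) it was 1131, 1253 and 908. Leaving out members at 0 and leaving out clec-60 were chosen after seeing the data. No paired analysis was possible because the libraries of a genotype are combined in 1 value, so the replicate block and leaving out each replicate were not run. Depth is unknown, and intervals of about 70% of the value or more limit what can be told apart.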
